A study of Bos indicus x Bos taurus with 17 samples.

Results

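The globin genes described here are 6 of the 21048 genes listed in each of the RNA-seq count tables of fetal liver and fetal skeletal muscle: HBG, HBB, HBA, HBA1 and HBM, which encode hemoglobin chains, and MB, which encodes myoglobin. They were chosen by symbol, and each symbol is on 1 line of each table. The fetuses were Bos taurus indicus (Nelore) × Bos taurus taurus (Holstein) F1 hybrids at about day 105 of gestation, labelled healthy. The ART-Normal group (n = 4) was conceived by assisted reproduction. The study describes this group as produced in vitro and of a weight similar to the controls. The Control-AI group (n = 2, numbered 2 and 4) was conceived by artificial insemination. Each of the 6 fetuses gave both tissues. The study's own list of fetuses leaves out ART-Normal 4, whose labels name it only as a healthy ART fetus. Its weight is therefore not known here. Sires, fetal sex and the batches of the libraries were not used here, and 2 controls are few for any comparison of conception.

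Hemoglobin is a tetramer of alpha-type and beta-type chains that carries oxygen in red blood cells. The alpha-type genes and the beta-type genes lie in separate clusters, from which embryonic, fetal and adult members are used in turn, and in cattle HBG is the fetal and HBB the adult beta-type gene. In mid-gestation the fetal liver is a main site of red blood cell production, whereas skeletal muscle holds red blood cells in its vessels and makes its own oxygen-binding protein, myoglobin.

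On the ARS-UCD1.2 assembly that the tables use, HBM (chromosome 25, 214283 to 215064, plus strand), HBA (216496 to 217264, plus) and HBA1 (219522 to 220318, plus) follow one another in the alpha-globin cluster, 1431 and 2257 bp apart. HBB (chromosome 15, 48362354 to 48363996, plus) and HBG (48412408 to 48414039, plus) lie in the beta-globin cluster, with the embryonic gene HBE2 and LOC787671 listed between them. MB is on chromosome 5 (73814162 to 73824954, minus strand). These are whole gene spans, exons and introns together, and the counts were made over them. No other listed gene overlaps any of the 6. HBA and HBA1 are duplicated alpha-globin genes with closely similar transcripts. How reads that match both were counted is not given in the sources used here, so the split of reads between HBA and HBA1 is uncertain. If such reads were left out, the sum of HBA and HBA1 is understated as well.

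Libraries held 18454088 to 43339598 counts in liver and 12433300 to 23578362 in muscle. Both libraries of Control-AI 2 stood apart from the other 5 fetuses. On the first principal component this fetus lay at 46.2 in liver, where the other 5 lay between -20.2 and -2.56, and at 46.0 in muscle, and these components held 51.0% and 53.6% of the variance. Its liver library also had the lowest scaling factor (trimmed mean of M values, TMM), 0.784 against 1.02 to 1.10. The tissue labels fitted their markers: 10 of 10 hepatocyte genes were higher in liver and 10 of 10 skeletal muscle genes were higher in muscle. Of all genes tested between the tissues, 40.8% were higher in liver and 40.5% higher in muscle. The hepatocyte genes summed to 259620 CPM (counts scaled to a library total of 1000000) in the liver of Control-AI 2 and to 35310 to 60417 CPM in the other 5 livers, although only 5 of the 10 genes were above the other 5 livers there. Because Control-AI 2 is 1 of only 2 controls, the main comparisons are given with and without it. All these are bulk samples, in which fewer cells of a type and less RNA per cell cannot be told apart.

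HBG, the fetal beta-type gene, had the most counts of the hemoglobin genes in both tissues. In liver it stood at 1693, 1541, 1665 and 1131 CPM in ART-Normal 1 to 4, at 2375 CPM in Control-AI 4 and at 15287 CPM in Control-AI 2. The livers other than that of Control-AI 2 therefore lay within a 2.10-fold range, and Control-AI 2 was 9.09 times their mean of 1681 ± 448 CPM (SD, n = 5). Ranked among all genes of a library, HBG was 6th in Control-AI 2 and between 27th and 72nd in the other livers. In muscle HBG stood at 212, 331, 173 and 567 CPM in ART-Normal 1 to 4, at 281 CPM in Control-AI 4 and at 85.8 CPM in Control-AI 2. Here Control-AI 2 was the lowest of the 6, so the fetus with the highest HBG in liver had the lowest HBG in muscle.

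**Figure D1:**
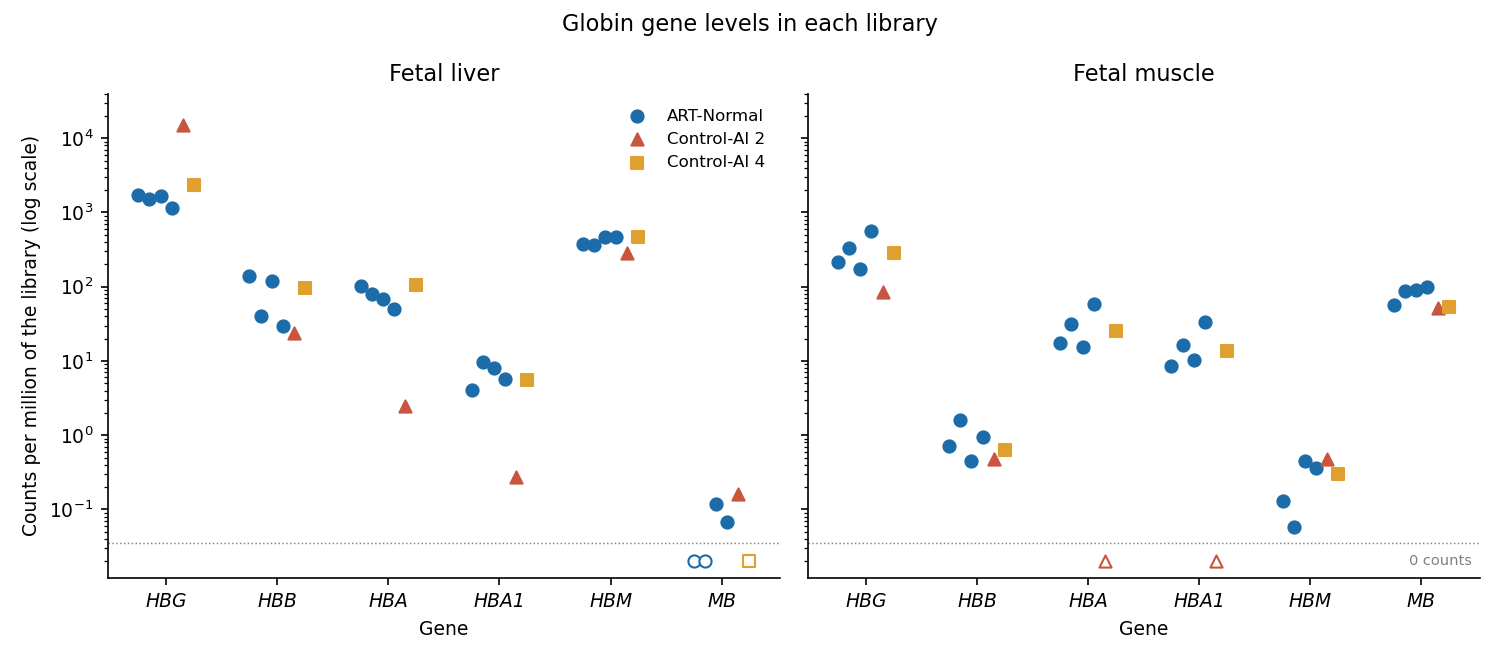
CPM (log scale) of the 6 globin genes in each library of liver and muscle; each point is 1 library, and open points below the dotted line are libraries with 0 counts. HBG leads in both tissues, MB is near 0 in liver, and Control-AI 2 (triangles) lies away from the other libraries for HBG, HBA and HBA1.

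HBB, the adult beta-type gene, was at much lower levels. In liver it stood at 140, 40.5, 120 and 29.9 CPM in ART-Normal 1 to 4, at 95.7 CPM in Control-AI 4 and at 23.9 CPM in Control-AI 2. The ART-Normal livers fell into a higher and a lower pair with a 4.69-fold range, the widest range of any hemoglobin gene among them. In muscle HBB rested on 6 to 27 counts per library, or 0.447 to 1.58 CPM, and no order of the muscle libraries can be read from counts that low.

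HBA, the more abundant of the 2 adult-type alpha genes here, stood at 102, 79.2, 67.5 and 50.8 CPM in the livers of ART-Normal 1 to 4 and reached 104 CPM in Control-AI 4. In the liver of Control-AI 2 it stood at 2.44 CPM (45 counts), which is 0.0302 of the mean of the other 5. In muscle it stood at 17.2, 31.5, 15.2 and 58.6 CPM in ART-Normal 1 to 4, at 25.1 CPM in Control-AI 4 and at 0 counts in Control-AI 2. In muscle the other 5 fetuses had the same order for HBA as for HBG, and HBA was lowest of all 6 in both tissues of Control-AI 2. Its 0 of 12433300 counts there allows up to 0.241 CPM (3 counts), so HBA was at least 63.2-fold higher in each of the other muscles.

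HBA1, the other adult-type alpha gene, stood at 4.04, 9.60, 8.06 and 5.74 CPM in the livers of ART-Normal 1 to 4, at 5.599 CPM in Control-AI 4 and at 0.271 CPM (5 counts) in Control-AI 2. In muscle it was higher than in liver in each of the 5 fetuses other than Control-AI 2: 8.54, 16.6, 10.2 and 33.0 CPM in ART-Normal 1 to 4, then 13.8 CPM in Control-AI 4. Control-AI 2 muscle had 0 counts, which makes each of the other muscles at least 35.4-fold higher. HBA and HBA1 were both lowest in Control-AI 2, in which HBG of the liver was highest.

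HBM encodes hemoglobin mu, an alpha-type chain of immature red cells. It stood at 376, 365, 463 and 471 CPM in the livers of ART-Normal 1 to 4, at 474 CPM in Control-AI 4 and at 286 CPM in Control-AI 2. It varied least of the hemoglobin genes in liver: the highest of the 5 livers other than Control-AI 2 was 1.30 times the lowest. In muscle it rested on 1 to 10 counts per library, or 0.0586 to 0.483 CPM, in all 6 fetuses.

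MB stores oxygen in muscle fibers and served as the muscle contrast. In muscle it stood at 57.5, 87.7, 89.5 and 98.0 CPM in ART-Normal 1 to 4, at 50.9 CPM in Control-AI 2 and at 53.4 CPM in Control-AI 4. Both controls lay below every ART-Normal muscle, and Control-AI 2 did not stand apart from Control-AI 4. In liver MB had 0 counts in ART-Normal 1, ART-Normal 2 and Control-AI 4 and 2 to 3 counts in the other livers. The 0 of 22502673 counts in ART-Normal 1 liver allows up to 0.133 CPM.

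To set the levels of different genes in order, CPM were divided by the listed span in kb. On that scale, in the 5 livers other than Control-AI 2, HBG (693 to 1455 CPM per kb) was above HBM (467 to 606), which was above HBA (66.0 to 135). HBA and HBB (18.2 to 85.4) overlapped, and HBA1 (5.07 to 12.04) was lowest of the hemoglobin genes. In the same 5 muscles HBG (106 to 347) was above HBA (19.8 to 76.2), HBA was above HBA1 (10.7 to 41.4) within each library although their ranges overlap, and HBB and HBM were under 1. HBM was thus second in liver by these counts and near 0 in muscle, where its order against HBB cannot be read from so few counts. The places of HBA and HBA1 are less certain. Reads that match both may have been left out, which would understate both genes against HBM. MB stood at 4.72 to 9.08 in the 6 muscles. It is understated on this scale, since its listed span of 10793 bp is longer than that of the other members. HBG and HBB (1632 and 1643 bp) also have longer listed spans than HBA, HBA1 and HBM (769 to 797 bp). Dividing by span therefore lowers both beta-type genes against the alpha-type genes.

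**Figure D2:**
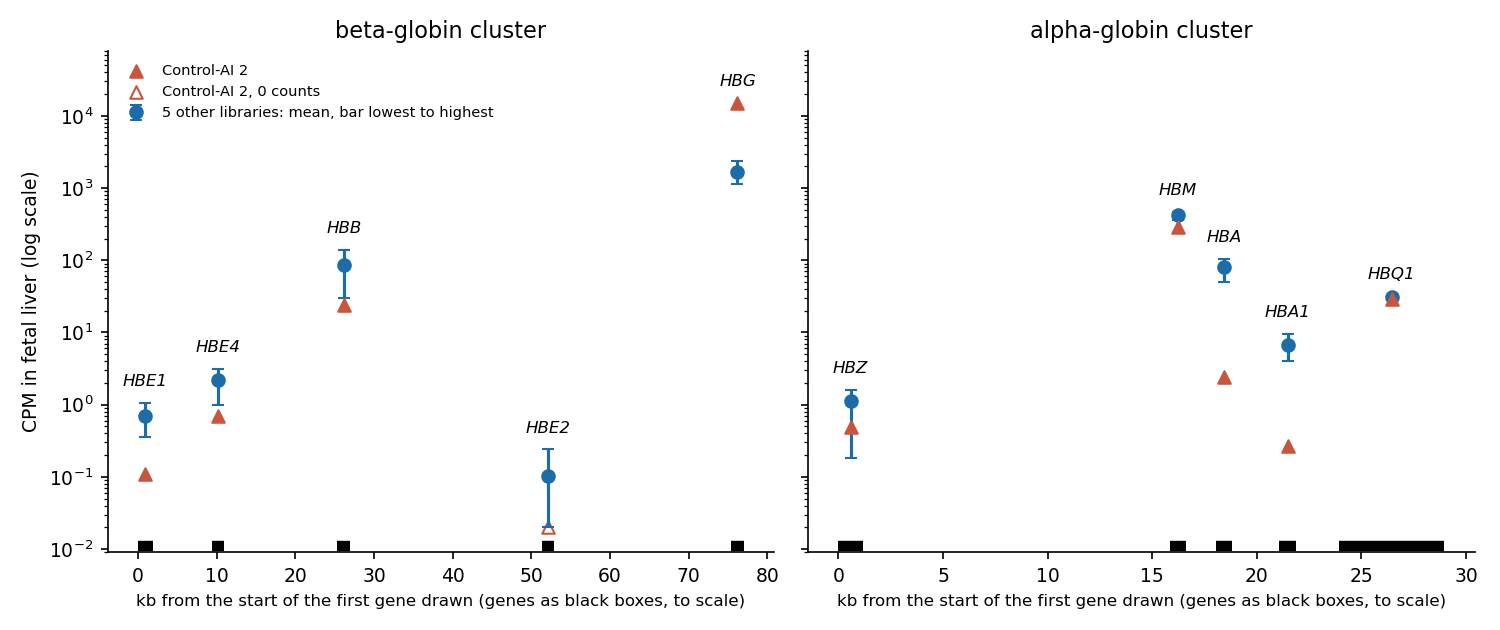
CPM (log scale) in fetal liver of the globin genes of each cluster against the distance in kb from the start of the first gene drawn; circles are means of the 5 livers other than Control-AI 2, bars run from their lowest to their highest value (0 drawn at 0.02), and triangles are Control-AI 2. The embryonic genes HBE1, HBE2, HBE4 and HBZ lie under 4 CPM, and Control-AI 2 is above the other livers only for HBG.

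The remaining globin genes set the 6 in context, and 9 of 12 symbols on that list were found in the tables. The embryonic genes HBE1, HBE2, HBE4 and HBZ stood at 0 to 3.16 CPM in the 6 livers and had 0 counts in all 6 muscles. HBQ1, the theta-type gene beside HBA1, stood at 28.1 to 32.5 CPM in liver and at 2.23 to 3.54 CPM in muscle, with Control-AI 2 inside the range of the other livers. AHSP, the chaperone of free alpha chains, stood at 317 to 575 CPM in liver and at 363 CPM in Control-AI 2, so the chaperone was within the common range in the liver where HBA was 0.0302 of it. CYGB (cytoglobin) was the reverse of the red cell genes, at 1.47 to 2.71 CPM in liver and 11.6 to 16.2 CPM in muscle. NGB (neuroglobin) was at 0 counts in all 6 livers and in 5 of 6 muscles.

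The comparison of the tissues asks how much of the hemoglobin message of a fetus is in liver, where red cells are made, against muscle. The 5 hemoglobin genes together took 0.232%, 0.204%, 0.232% and 0.169% of the counts in the livers of ART-Normal 1 to 4, 0.305% in Control-AI 4 and 1.56% in Control-AI 2 (95% Wilson interval 1.55 to 1.57%). In muscle they took 0.0239%, 0.0380%, 0.0199% and 0.0660% in ART-Normal 1 to 4, 0.0321% in Control-AI 4 and 0.00868% in Control-AI 2. The intervals were within 0.884% of the value in liver and 5.97% in muscle, cover counting error only, and are narrower than the spread between fetuses. The share was higher in liver in 6 of 6 fetuses, by 11.8-fold on average (mean log2 ratio 3.56, exact paired permutation test, two-sided, p = 0.03125, the smallest that 6 pairs allow). Without Control-AI 2 the ratio was 6.82-fold (p = 0.0625 by the same exact test, the smallest that 5 pairs allow).

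The ratio of liver to muscle differed widely among the hemoglobin genes. For HBG it was 7.97, 4.66, 9.63 and 2.00 in ART-Normal 1 to 4, 8.46 in Control-AI 4 and 178 in Control-AI 2. For HBB it ran from 25.6 to 267 and for HBM from 593 to 6231 over the 6 fetuses. These ratios rest on 6 to 27 counts of HBB and 1 to 10 counts of HBM in muscle, so their spread between fetuses cannot be read. The ranges of HBM and HBG did not overlap. For HBA the ratio was 5.95, 2.51, 4.42 and 0.867 in ART-Normal 1 to 4 and 4.14 in Control-AI 4. For HBA1 it was under 1 in all 5 fetuses with counts in muscle, from 0.174 to 0.791. ART-Normal 4 had the lowest ratio of the 6 fetuses for HBG and, of the 5 with counts in muscle, the lowest for HBA and HBA1. For MB, muscle was 313 to 1425 times liver in the 3 fetuses with counts in both tissues and at least 419-fold to 1267-fold higher, against the limit of 3 counts, in the 3 with 0 counts in liver.

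**Figure D3:**
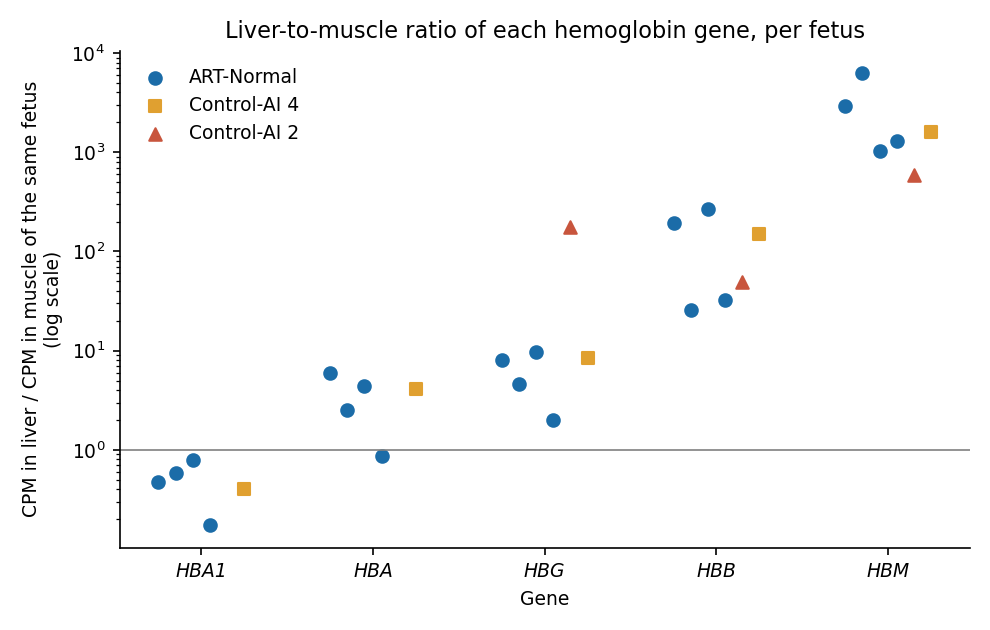
CPM in liver divided by CPM in muscle of the same fetus (log scale) for each hemoglobin gene; each point is 1 fetus, and Control-AI 2 has no point for HBA1 and HBA because its muscle had 0 counts of both. HBA1 lies under the line at 1 in 5 fetuses, HBM lies at 593 or above in all 6, and HBG of Control-AI 2 lies at 178. The HBM points rest on 1 to 10 counts in muscle.

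In edgeR's quasi-likelihood test across 12923 genes, with conception group as a covariate and Benjamini-Hochberg adjustment, 81.3% of all genes differed between liver and muscle (40.8% higher in liver, 40.5% higher in muscle), and 4 of the 6 globin genes did. HBM was higher in liver by 10.57 ± 0.25 on the log2 scale (SE, adjusted p = 1.92e-13), HBB by 6.69 ± 0.54 (3.45e-08) and HBG by 3.40 ± 0.76 (8.96e-04). MB was lower in liver by a log2 fold change of -10.30 ± 0.39 (adjusted p = 1.02e-11). HBA (1.62 ± 0.73, adjusted p = 0.0550) and HBA1 (-1.20 ± 0.67, adjusted p = 0.113) did not pass. With each fetus as a replicate block, since both tissues came from the same animal, 84.7% of all genes and 6 of 6 globin genes passed, HBA at 1.76 ± 0.40 (adjusted p = 0.00215) and HBA1 at -1.03 ± 0.35 (adjusted p = 0.0213). Without Control-AI 2, 81.6% of genes and 6 of 6 globin genes passed, HBG at 2.46 ± 0.29 (adjusted p = 1.88e-06), HBA at 1.51 ± 0.32 (6.24e-04) and HBA1 at -1.25 ± 0.33 (0.00322), while HBM (10.70), HBB (6.74) and MB (-10.90) stayed close to their values. HBM, HBB and MB reached the minimum of 5 CPM only in the tissue where they were high, so that filter nearly fixed their result in advance. The fitted values of MB and HBM rest on near-zero counts in the other tissue and depend on the prior count. Those of HBA and HBA1 also rest on how reads that match both genes were assigned, which is not known.

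The make-up of the hemoglobin counts also differed between the tissues. HBG made up 92.3%, 97.4%, 93.3% and 97.4% of the counts of both beta-type genes (HBB plus HBG) in the livers of ART-Normal 1 to 4, 96.1% in Control-AI 4 and 99.8% in Control-AI 2. In muscle it made up 99.5% to 99.8% in ART-Normal, 99.4% in Control-AI 2 and 99.8% in Control-AI 4. The adult gene thus took a larger part of the beta-type counts in liver than in muscle in 5 of 6 fetuses, all but Control-AI 2. The mean difference was -3.58 percentage points (exact paired permutation test, two-sided, p = 0.0625), and -4.38 points without Control-AI 2 (p = 0.0625 by the same exact test, the smallest that 5 pairs allow). The counting intervals of these shares were within 0.257 points in liver and 0.479 points in muscle.

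**Figure D4:**
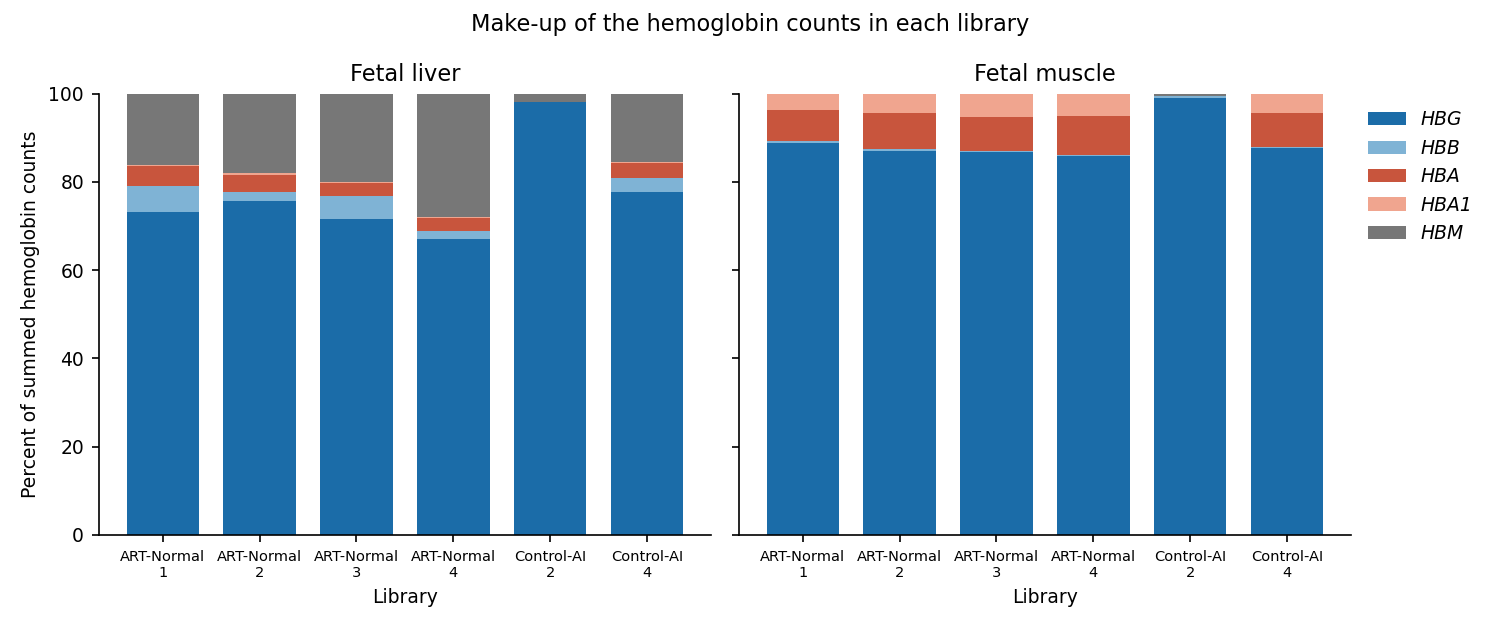
Percent of the summed counts of the 5 hemoglobin genes that each gene takes, per library, in liver and muscle. HBM takes part of the liver counts but not of the muscle counts, HBA1 is visible in muscle only, and HBG takes 98.0% and 98.9% in Control-AI 2.

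The share of HBA plus HBA1 out of HBA, HBA1, HBB and HBG per kb of span, which leaves out HBM, was 10.96%, 10.6%, 8.21% and 9.34% in the livers of ART-Normal 1 to 4, 8.58% in Control-AI 4 and 0.0374% in Control-AI 2. In muscle it was 20.2%, 23.3%, 23.5% and 25.3% in ART-Normal 1 to 4, 22.4% in Control-AI 4 and 0% in Control-AI 2. Among the 5 fetuses other than Control-AI 2 every muscle was above every liver, and in both tissues Control-AI 2 was far below the rest. The difference of liver from muscle averaged -11.2 points over 6 fetuses (exact paired permutation test, two-sided, p = 0.0625), the same direction in 5 of 6, and -13.4 points without Control-AI 2 (p = 0.0625 by the same exact test). On counts without a length it was -6.41 points. The direction turned when HBM was added to the alpha-type genes. With HBM the alpha-type share was 33.1% to 48.7% in the 5 livers other than Control-AI 2 and 20.3% to 25.3% in their muscles, and 3.79% and 1.15% in liver and muscle of Control-AI 2. Liver was then higher in 6 of 6 fetuses, by 13.5 points on average (exact paired permutation test, two-sided, p = 0.03125, the smallest that 6 pairs allow). This variant was added after the data were seen. HBM is high in liver and near 0 in muscle, which nearly fixed that direction, so this p-value lends no support. Whether the alpha-type genes took more of the counts in muscle or in liver therefore depended on HBM. Spans hold introns, so these shares are not ratios of chains. The part of HBA plus HBA1 is also understated if reads that match both genes were left out.

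The split between the duplicated alpha genes moved with tissue as well. HBA1 made up 3.80%, 10.8%, 10.7% and 10.2% of the HBA plus HBA1 counts in the livers of ART-Normal 1 to 4, 5.11% in Control-AI 4 and rested on 5 HBA1 and 45 HBA counts in Control-AI 2. In muscle it made up 33.2% to 40.1% in the 4 ART-Normal fetuses and 35.5% in Control-AI 4. The 2 tissues did not overlap, but how reads that match both genes were assigned is not known, so the split itself is uncertain. HBM stood at 200 to 416 counts per 1000 counts of HBG in the 5 livers other than Control-AI 2, at 18.7 in the liver of Control-AI 2, and at 0.177 to 5.62 in the 6 muscles.

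Genes of the red cell program gave the setting for these tissue differences. Each list was tested in the same edgeR fit, with a median log2 fold change of 0.01 over all genes. Of all tested genes, 40.8% were higher in liver and 40.5% higher in muscle. List genes that reached 5 CPM only in liver had their direction nearly fixed by that filter. Within muscle alone, 13 of 13 heme synthesis lines, 7 of 16 membrane genes and 11 regulators of globin genes reached it. All 13 lines of heme synthesis genes were higher in liver (median 3.73), among them ALAS2, the red cell enzyme that starts heme synthesis (7.51 ± 0.32), ALAD, which makes porphobilinogen (3.89 ± 0.09), and FECH, which inserts iron (4.42 ± 0.12). SLC25A37, the mitochondrial iron importer, is on 2 lines with values of 3.73 and 4.55. Of 16 red cell membrane genes, 15 were higher in liver and TMOD1 was higher in muscle (median 7.01). SLC4A1, the anion exchanger band 3, was higher by 10.93 ± 0.45, while SPTB (beta-spectrin, 2.04 ± 0.16) and EPB41 (protein 4.1, 3.59 ± 0.09), which other cells also use, were higher by less.

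Of 17 tested regulators of globin genes, 14 were higher in liver, and CHD4 and NR2C2 were higher in muscle (median 2.52). KLF1, the activator of the adult beta-globin gene, was higher by 10.67 ± 0.33, NFE2 by 9.20 ± 0.31, TAL1 by 5.86 ± 0.15 and SOX6, a repressor of embryonic and fetal beta-type genes that muscle also uses, by 1.35 ± 0.13. Of 10 genes that clear free hemoglobin and heme, 7 were higher in liver and FLVCR1, a heme exporter, was higher in muscle (median 1.71). HPX, the plasma heme carrier, was higher by 12.19 ± 0.69, BLVRB by 5.50 ± 0.13 and HMOX1, heme oxygenase 1, by 3.63 ± 0.15. Of the other globin list, AHSP (7.84 ± 0.27) and HBQ1 (3.54 ± 0.12) were higher in liver, CYGB (-2.54 ± 0.21) was higher in muscle and ADGB (0.20 ± 0.16) did not pass. Markers of other blood cells moved with the same contrast. Of 11 listed leukocyte and macrophage genes, 8 of 8 tested were higher in liver (median 4.18), against 40.8% of all tested genes. So were 6 of 6 megakaryocyte and platelet genes (median 7.80). Within muscle alone, 3 of the leukocyte and 1 of the platelet genes reached the filter. The part of these markers in the globin results was not tested. These list counts were the same without Control-AI 2, apart from 1 more regulator tested and not passing and 9 of 9 leukocyte genes.

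Around MB, 8 of 11 tested oxidative and slow muscle genes were higher in muscle (median -10.82), among them MYL2 (-13.03 ± 0.75), TNNC1 (-12.13 ± 0.51), MYH7 (-10.82 ± 0.46) and TNNI1 (-9.25 ± 0.39), contractile proteins of slow fibers. EPAS1, a hypoxia-inducible transcription factor, and PPARGC1A, a coactivator of mitochondrial genes, were higher in liver. CS, the mitochondrial citrate synthase, did not pass. Of all tested genes, 40.5% were higher in muscle. Within liver alone 3 genes of this list reached the filter, so the direction of the others was nearly fixed by it.

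The comparison of conception asks whether the ART-Normal fetuses differed from those after artificial insemination. In liver, 4 of the 6 globin genes had at least 5 CPM in every library of either group (HBG, HBB, HBA and HBM), and 0 of 4 passed edgeR's quasi-likelihood test, as did 0 of 11304 genes (0%). Without adjustment 948 genes had p under 0.05, which is 8.39% of those tested, and HBG was among them. HBG had the largest difference of the 4, with ART-Normal at a log2 difference of -2.92 ± 0.60 (unadjusted p = 7.13e-04, adjusted p = 0.354). All 4 ART-Normal livers lay below both controls, as in 9.16% of the tested genes. Without Control-AI 2 the value was -0.66 ± 0.25 (adjusted p = 0.999), and without Control-AI 4 it was -3.76 ± 0.22 (adjusted p = 3.46e-06), in a fit that called 7.15% of all genes. The size of the HBG difference therefore rested on 1 control library.

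HBA differed by 0.46 ± 0.84 in liver (adjusted p = 0.856), by -0.47 without Control-AI 2 and by 4.52 without Control-AI 4, so its direction followed which control was kept. HBB (0.38 ± 0.64, adjusted p = 0.846; -0.19 without Control-AI 2) and HBM (-0.04 ± 0.18, adjusted p = 0.949; -0.18 without Control-AI 2, 0.13 without Control-AI 4 and 0.14 with scaling to library size alone) also had no stable direction. The likelihood ratio test (adjusted p = 4.67e-04) and DESeq2's Wald test (adjusted p = 0.0169) passed HBG and no other globin gene in liver, where they called 0.787% and 0.495% of all genes. Like the main test, both rest on the same 2 controls, which differed 6.44-fold in HBG.

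In muscle, HBG, HBA, HBA1 and MB reached the filter and 0 of 4 passed, against 1 of 11695 genes (0.00855%), with 1075 genes (9.19%) at an unadjusted p under 0.05. HBG differed by 0.81 ± 0.51 (adjusted p = 0.684) and by 0.18 without Control-AI 2. HBA differed by 1.23 ± 0.97 and HBA1 by 1.23 ± 0.92 (adjusted p = 0.752 and 0.738), and by 0.27 and 0.29 without Control-AI 2. Without Control-AI 4 the muscle comparison passed HBG, HBA and HBA1, where 10.9% of all genes passed, and the remaining control had 0 counts of HBA and HBA1, so no fold is given for them.

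The 2 control muscles lay close together in MB, at 50.9 CPM (Control-AI 2) and 53.4 CPM (Control-AI 4), with ART-Normal 1 just above them at 57.5 CPM. MB did not pass the test, and because the controls were alike, the size of its difference changed little whichever of them was kept. It was higher in ART-Normal muscle by 0.69 ± 0.21 on the log2 scale (unadjusted p = 0.00695, adjusted p = 0.356), by 0.63 without Control-AI 2 and by 0.75 without Control-AI 4. The 4 ART-Normal muscles lay above both controls, as in 8.76% of the tested genes, and the test across all genes was not passed in any of these fits (adjusted p = 0.968 without Control-AI 2 and 0.0747 without Control-AI 4). The summed slow and oxidative muscle genes overlapped between the groups, at 4536 CPM in Control-AI 2 within 4094 to 5012 CPM in the other 5 muscles, and 0 of the 11 tested passed.

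**Figure D5:**
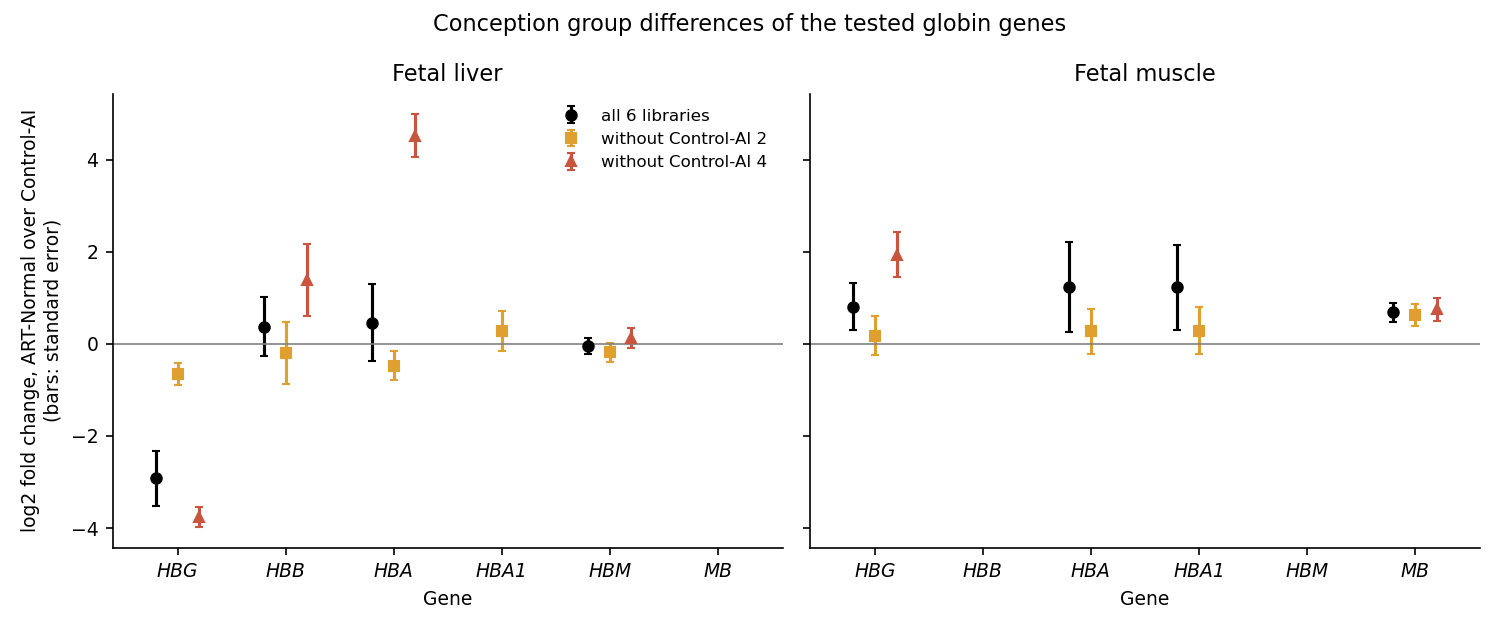
Log2 fold change between conception groups (positive where ART-Normal is higher) from edgeR (bars are standard errors) for the globin genes that reached the filter, in all 6 libraries and without each control; HBA and HBA1 in muscle without Control-AI 4 are left out because the control that remains had 0 counts. HBG in liver moves from -2.92 to -0.66 without Control-AI 2, whereas MB in muscle stays between 0.63 and 0.75.

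The summed hemoglobin share in liver was lower in ART-Normal than in Control-AI by a mean log2 difference of -1.73 (exact permutation test, two-sided, p = 0.0667, the smallest that 4 against 2 allows), and by -0.56 without Control-AI 2. In muscle the difference was 0.99 (exact permutation test, p = 0.333), and 0.04 without Control-AI 2. The HBG share of the beta-type counts differed by -2.86 points in liver (exact permutation test, p = 0.267), with values of -0.999 and -4.72 points when Control-AI 2 and Control-AI 4 were left out in turn, and by 0.08 points in muscle (p = 0.6), which was -0.084 points without Control-AI 2. The share of HBA plus HBA1 differed by 5.47 points in liver and 11.8 points in muscle (exact permutation test, p = 0.133 each), and by 1.197 and 0.626 points without Control-AI 2.

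The test of whether the conception difference differed between the tissues passed 0 of 6 globin genes and 0 of 12923 genes (0%), with 717 genes (5.55%) at an unadjusted p under 0.05. HBG had a log2 difference of -3.72 ± 1.03 between the tissues (unadjusted p = 0.00324, adjusted p = 0.661), which was -0.82 without Control-AI 2 and -5.68 (adjusted p = 0.00155, with 1.74% of all genes called) without Control-AI 4. The other 5 did not pass. HBM differed by 0.46 ± 0.64, and by 0.06 and 1.02 when Control-AI 2 and Control-AI 4 were left out in turn. HBA differed by -0.76 ± 1.55 and by -0.73 without Control-AI 2, and it has no fold without Control-AI 4, where the remaining control muscle had 0 counts. HBA1 (-0.14 ± 1.47, and 0.01 without Control-AI 2), HBB (-0.25 ± 1.23, and 0.50 without Control-AI 4) and MB (-1.58 ± 1.47, and 2.61 without Control-AI 2) each changed direction with the control that was kept, and HBB, HBM and MB rest on near-zero counts in one tissue.

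The red cell setting of Control-AI 2 is given beside its globin values. In its liver the heme synthesis genes summed to 0.771 of the mean of the other 5 livers, the red cell membrane genes to 0.605 and the globin regulators to 0.675, all below the lowest of the 5 in CPM. These ratios moved with the low scaling factor of that library. After TMM scaling heme synthesis was 1.03 times the mean and within the range of the 5, while the membrane genes (0.810) and the regulators (0.903) stayed below it. ALAS2 was at 1162 CPM, within the 1076 to 1378 CPM of the others, and at 1482 against 981 to 1290 after TMM scaling. SLC4A1 at 1247 CPM was below their 1590 to 1887 CPM, and within their range after TMM scaling. HBG was 9.09 times the mean in CPM and 12.1 times after TMM scaling, an excess that the sums of the heme and membrane genes did not share on either scale. The liver genes AHSG, a secreted plasma glycoprotein (111730 CPM against 3991 to 8126), ALB, albumin (56076 against 7113 to 12792), and SERPINA1, a plasma protease inhibitor (44196 against 3460 to 7965), were higher there together with HBG. So were AFP, alpha-fetoprotein (3.19 times the mean of the 5), and APOA2, an apolipoprotein (1.69 times). The other 5 hepatocyte genes were not: FGB (0.991) and TTR (0.859) lay within the range of the 5 livers in CPM, and APOB (0.781), HNF4A (0.760) and APOA1 (0.618) lay below it. After TMM scaling FGB was 1.32 times the mean and above the 5, and the other 4 were within their range. The hepatocyte sum, 5.48 times the mean of the others in its liver, thus rested on some of its genes. In its muscle the sum was 8.03 times the mean, with 8 of 10 genes above the other 5, and the skeletal muscle genes summed to 36.7 CPM in its liver against 7.21 to 8.73 CPM. In its muscle, heme synthesis (1.14) and membrane genes (1.01) were near the mean of the others while HBG was 0.274 of it. The part of these in the globin values was not tested.

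Genes with the most similar pattern were found by Pearson's r of log2 TMM-scaled CPM with the summed hemoglobin genes, over 10751 genes in liver and 11246 in muscle at 5 CPM or more in all 6 libraries. In liver they were AHSG (0.999), DPCD (0.998), ORAOV1 (0.994), STT3A (0.993) and GNAS (0.992) over 6 libraries. Without Control-AI 2 they were TRMT10C (0.992), AHSG (0.991), HNRNPUL1 (0.990), GC (0.990) and NUDT6 (0.988), so AHSG stayed in the list. In muscle they were MANBA, RPS27, COX6B1, EIF3G and PSMB3 (0.973 to 0.982), and without Control-AI 2 CDK5RAP3, PFDN5, NONO, HINFP and ZNF18 (0.994 to 0.999), with no gene in both. For MB in muscle they were MZT2B (0.997), TTL, EEPD1, CKB, a cytosolic creatine kinase, and CYBA (0.975 or above), and without Control-AI 2 IFFO1, MZT2B, DEXI, DUSP26 and TGM2. With 5 or 6 libraries that share depth and scaling, these lists describe the libraries only.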

How the data were processed

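RNA was selected with oligo(dT) beads, made into strand-specific libraries and sequenced as 150 bp paired-end reads. For liver and for muscle, the authors deposited a table of unnormalized counts by gene on ARS-UCD1.2. The submitters' processing notes name FastQC 0.11.7, HISAT2 2.1.0, Cufflinks, SAMtools, featureCounts and edgeR 3.24.3, with no roles. Strand setting and treatment of reads that match several genes are not given in the sources used here. All 21048 listed lengths equal the gene span, so intronic reads were counted too, and duplicated genes may share reads. The 6 columns per table that match labelled samples were used, and 14 other count columns were not used here, nor were 5 kidney samples. Deposited tables of the authors' own comparisons (fold changes, p-values) were not used. No gene sequences were used here.

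CPM are counts scaled to a library total of 1000000. Tests used edgeR 4.0.16 in R 4.3.3: quasi-likelihood, TMM, a minimum of 5 CPM in every library of any group, Benjamini-Hochberg threshold 0.05, two-sided. Liver against muscle had conception as a covariate, and fetal identifiers pair the tissues (deviations correlated across genes at r of 0.0374 to 0.357 between the tissues of a fetus). Shares were tested by exact permutation in SciPy 1.17.1 (15 splits, or 64 sign patterns for pairs), and a count of 0 was read against 3 counts. The share of alpha-type genes was planned on coding length and uses the listed span, since no coding length was at hand. Alternatives were RLE, upper quartile and library size scaling, scaling without the 6 genes, the likelihood ratio test, DESeq2 1.42.0, other filters, a replicate block, ART-Normal 1 to 3, and leaving out each fetus. Counts without a length, and HBM among the alpha-type genes, were added after the data were seen. The fits were tested on simulated counts with 200 changed genes, and the permutation tests on simulated normal values.

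The globin genes, gene lists and tests were chosen with earlier results of these data known. The text names all 6 globin genes, up to 4 genes per list with the highest mean CPM in the tissue described, and the 5 genes most similar in pattern, and 1 gene that this rule names is not reported here. The embryonic genes, NGB and the list genes that went against their list were named after their values were seen, as were the other hepatocyte genes beside ALB and AHSG.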

Additional observations from a re-analysis of the deposited data

Results flagged for a closer look

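Dixon's test of the highest and lowest sample was applied to the 4 ART-Normal libraries for 22 measures (6 gene levels and 5 shares or ratios, per tissue), of which chance flags about 1 in 20. It picked out 1: the HBA1 percent of HBA plus HBA1 counts in the liver of ART-Normal 1, at 3.80%, where ART-Normal 2 to 4 lay between 10.2% and 10.8% (gap over range 0.908). That library had 91 HBA1 and 2303 HBA counts, and Control-AI 4 liver was at 5.11%. How reads shared by both genes were assigned is not known, and its part in this value was not tested.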

How the results depend on the processing

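Every alternative kept the direction between liver and muscle of each globin gene it tested, which with at least 10 counts in every library was HBG alone. Counts of globin genes passing were 4 in the main comparison of tissues, 4 to 6 with 1 fetus left out and 1 with at least 10 counts in every library, where only genes present in both tissues are tested. With the replicate block it was 6. Most genes passed in each of these fits. All genes called between the tissues were 10503 of 12923 in the main fit and 10941 of 12923 with the block. They were 10177 to 10759 with 1 fetus left out and 9798 of 12544 with at least 10 counts in every library. In liver by conception 1 globin gene passed in the likelihood ratio and DESeq2 tests and 0 to 2 with 1 fetus left out, against 0. In muscle 3 passed with the replicate block and 0 to 3 with 1 left out, against 0. Across conception groups the numbers 2 and 4 mark different animals, whose deviations correlated at -0.128 to 0.0116, so the block there shares only a number. For the interaction 1 passed in the likelihood ratio test and 0 to 1 with 1 left out. All genes called in liver by conception were 0, against 2 with ART-Normal 1 to 3, 8 with library size alone, 6 with the block, 56 with DESeq2, 89 with the likelihood ratio test and 0 to 830 with 1 left out. In muscle it was 1, against 0 with ART-Normal 1 to 3, 90 with the block, 106 with DESeq2, 120 with the likelihood ratio test and 0 to 1327 with 1 left out. For the interaction they were 0, against 37 with DESeq2, 98 with the likelihood ratio test and 0 to 232 with 1 left out. The highest counts by conception and for the interaction came without Control-AI 4, which leaves Control-AI 2 as the lone control, assumed to vary like the others.

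In liver by conception HBA turned to -0.47 without Control-AI 2 and reached 4.52 without Control-AI 4. HBB turned to -0.73 with the replicate block, -0.03 without ART-Normal 1 and -0.19 without Control-AI 2, with a highest value of 1.39. HBM turned to 0.14 with library size alone, 0.04 without ART-Normal 2 and 0.13 without Control-AI 4, with a lowest value of -0.18. HBB alone in place of the summed share gave 0.49 in liver, against -1.73. Leaving out 1 fetus, the summed share ran from -2.91 to -0.56 in liver and 0.04 to 1.93 in muscle, and its liver to muscle log2 ratio from 2.77 to 4.00, each at an exact p of 0.0625, the smallest that 5 pairs allow (4.00 also with ART-Normal 1 to 3). The HBG share of beta-type counts in muscle ran from -0.084 (without Control-AI 2) to 0.25 points. That share in liver ran from -4.72 to -0.999 points. The liver to muscle difference of the HBA plus HBA1 share turned from -11.2 to 13.5 points with HBM added. For the interaction, HBA1 turned to 0.49 with ART-Normal 1 to 3 and ran from -7.32 to 0.49 with 1 left out, HBB turned to 0.061 with ART-Normal 1 to 3 and ran from -0.76 to 0.50, and MB ran from -2.98 to 2.61. Other causes were not tested. Low counts limit HBB and HBM in muscle and MB in liver.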
